A study of Mus musculus with 6 samples.

Results

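The genes that encode the subunits of integrins and laminins were examined in whole mouse embryos that lacked Fzd7 alone or both Fzd2 and Fzd7 (written Fz7 and Fz2 in the labels). Members were all genes whose symbol names an integrin alpha or beta subunit or a laminin alpha, beta or gamma chain. Binding proteins such as Itgb1bp1, and the integrin-like genes Itgb2l and Itgbl1, were not counted. Each gene was read from the brightest of the probe sets that carry its symbol alone. The rule found 34 genes of the 18193 with such a probe set, 24 integrin subunit genes and 10 laminin chain genes. Itga11 and Itgad had no probe set of that kind and were not analysed here. Embryos of the first group were wild type at Fzd2 and homozygous mutant at Fzd7 (Fz2+/+; Fz7-/-), and those of the second were homozygous mutant at both loci (Fz2-/-; Fz7-/-). All came from embryonic day 8.5, were of a C57BL6/129 mixed background and are labelled as mixed in sex, with 3 arrays per group. Both groups carry the Fzd7 mutation, and wild-type embryos were not analysed here. The comparison is of the double with the single knockout, so the groups differ by genotype at Fzd2 where Fzd7 is already gone. Any other difference between the samples of the groups cannot be told apart from that genotype here. Nothing in the labels tells whether 1 embryo or a pool made a sample, and p-values here cover only the spread between samples, part of which may be technical.

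Integrins are cell surface receptors made of 1 alpha and 1 beta subunit, which bind proteins of the extracellular matrix or of other cells and connect them to the actin cytoskeleton. Laminins are trimers of an alpha, a beta and a gamma chain that form the sheet on which a basement membrane is built, and they are bound by some integrins and by dystroglycan. In the early embryo basement membranes separate epithelia such as the neural tube and somites from mesenchyme, while fibronectin and its integrin receptors are needed for somites, heart and vessels. Frizzled proteins are receptors for Wnt ligands.

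All values are log2 RMA values, where a difference of 1 is a doubling, and differences are double minus single knockout unless stated. Fzd2 separated the groups as labelled, with a difference of -2.42 (SE 0.11, n = 3 per group, limma adjusted p = 0.00567; exact two-sided permutation p = 0.1, the smallest that 3 against 3 arrays allow). It did not pass when its probe sets were averaged (limma adjusted p = 0.0691), nor on leaving out single knockout replicate 1, replicate 2, replicate 3 or double knockout replicate 3 (0.0831, 0.120, 0.109 and 0.0759). Fzd7 differed by -0.039 and does not check the labels, since the sources used here do not place its probe sets relative to the deletion. Of 14 measured marker genes of embryonic tissues at this stage, 13 lay at or above the median brightness of all genes, 7.10. Double knockout replicate 1 stood apart. It correlated with the other arrays at 0.986 to 0.990 across genes, against 0.997 to 0.998 among those. There were 479 genes in it at a distance above 1 from the average of the remaining 5 arrays, against 18 to 37 in any other array. Results are therefore given with and without it. In whole embryos, fewer cells of a type and less RNA per cell cannot be told apart.

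No integrin or laminin subunit gene passed the test. By limma with Benjamini-Hochberg adjustment over all 18193 genes, 0 of 34 members had an adjusted p under 0.05, and the smallest was 0.872. The background is small as well, since 1 gene in all, Fzd2, was called (0.0055% of genes). At an unadjusted p under 0.05 there was 1 member, Itga5, where 4.96% of all genes lay. The 6 values of the groups did not overlap for 4 members, Itga5 and Lama5 with lower and Itgal and Lama3 with higher double knockout values, against 11.4% of all genes (6.6% lower and 4.85% higher). Without double knockout replicate 1, limma again called 0 members (smallest adjusted p = 0.780), 0 had an unadjusted p under 0.05 (6.67% of all genes), and the same 4 did not overlap (22.3% of all genes). Each of these shares lay near or below its background, which is no result about the members.

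The differences were small. The mean was lower in the double knockout for 26 of 34 members and higher for 8, where 53.8% of all genes were lower. The median difference was -0.050 over the members and -0.0093 over all genes. No member differed by more than 0.5 in either direction, where 2.04% of all genes did, and the largest size was 0.36, for Itga9. The median size of the difference was 0.082 over members and 0.067 over all genes. The range over the 6 arrays was 0.29 at the median over members and also 0.29 over all genes. Leaving out double knockout replicate 1 gave 25 members lower, 9 higher and a median of -0.053, but not the same values by gene. The sign turned for 5 members, Itgb3, Itgb5, Itgb7, Itgb8 and Lamb1, and the median of the integrin alpha genes went from -0.14 to -0.076. Among the subfamilies, 14 of 16 integrin alpha genes and 8 of 10 laminin genes were lower, and the 8 integrin beta genes were split 4 to 4. These counts are descriptions of genes that did not pass the test.

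How large a change the arrays could have missed follows from the 95% interval of each difference in limma, which is not adjusted for the number of genes. For 31 of 34 members the whole interval lay within a 1.5-fold change in either direction, 0.58 on the log2 scale (90.8% of all genes). The exceptions were Itga4, Itga6 and Itga9. Without double knockout replicate 1 the count was 33, with Itga9 outside (96.0% of all genes). All 10 laminin intervals lay within 1.5-fold in both settings. Within a 1.25-fold change lay the intervals of 18 members, or of 23 without that array (63.1% and 70.1% of all genes). RMA compresses the differences of dim genes, which these bounds do not take into account.

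**Figure D1:**
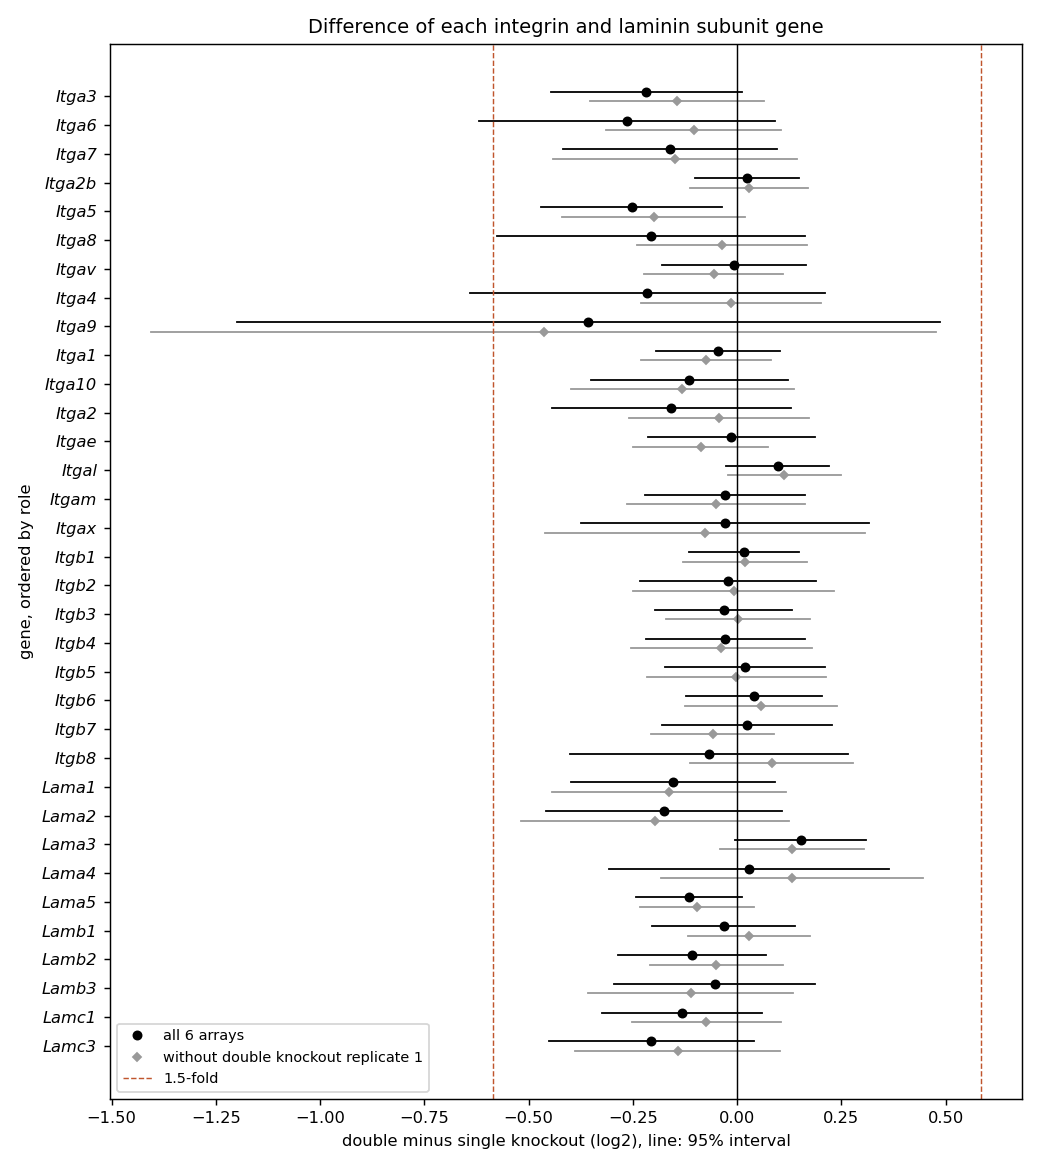
Difference between double and single knockout (log2, x axis) for each of the 34 integrin and laminin subunit genes (y axis, ordered by role), with the 95% interval in limma as a line. Black circles are all 6 arrays, grey diamonds leave out double knockout replicate 1, and dashed lines mark a 1.5-fold change; the intervals of Itga4, Itga6 and Itga9 reach past it with all arrays, and that of Itga9 alone without replicate 1.

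The region before the transcription start of members was set beside that of all promoters, as a feature the arrays did not use. RefSeq promoters of the GRCm38.p6 build were available for 22 of the 34 genes, with 25 starts. In the 250 bases before each start, both strands were searched. The core bound by Tcf and Lef, the factors that act with beta-catenin in Wnt signalling (CTTTGA), was found in 4 of 25 member promoters (16.0%) and in 13.8% of all 32851 promoters of the same length. The GC box (GGGCGG) was in 36.0% against 32.7%, the CCAAT box (CCAAT) in 16.0% against 33.9%, and the TATA box (TATAAA) in 0 of 25 against 12.4%. Each motif was counted on its own, and matches of different motifs may share letters. The median GC content was 57.6% for member promoters and 52.4% for all. These are descriptions with no test, and a match is not a bound site. Shown are the shared beta subunit gene Itgb1, the members Lama5 and Itga5 whose lower values did not overlap between groups, and Itga2b, which lies near Fzd2. Each is 5′ to 3′ on the gene's strand, ends at the base before the start, and has any of the 4 motifs, on either strand, in capitals.
Itgb1 (chr8:128685404-128685653, plus strand): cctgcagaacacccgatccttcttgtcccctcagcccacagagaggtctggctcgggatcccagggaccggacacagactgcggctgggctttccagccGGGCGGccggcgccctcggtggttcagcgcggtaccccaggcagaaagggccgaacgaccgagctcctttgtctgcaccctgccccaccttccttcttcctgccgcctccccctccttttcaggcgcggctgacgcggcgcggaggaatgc
Lama5 (chr2:180225860-180226109, minus strand): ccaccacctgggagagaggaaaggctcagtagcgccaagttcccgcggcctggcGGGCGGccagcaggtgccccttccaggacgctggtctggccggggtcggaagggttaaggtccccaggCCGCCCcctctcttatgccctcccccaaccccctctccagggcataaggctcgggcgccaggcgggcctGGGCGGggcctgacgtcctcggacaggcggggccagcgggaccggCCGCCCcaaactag
Itga5 (chr15:103366792-103367041, minus strand): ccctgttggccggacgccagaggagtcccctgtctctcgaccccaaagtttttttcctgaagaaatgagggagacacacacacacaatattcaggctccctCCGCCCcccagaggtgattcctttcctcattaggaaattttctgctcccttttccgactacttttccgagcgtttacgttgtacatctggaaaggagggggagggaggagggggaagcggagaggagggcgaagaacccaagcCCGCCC
Itga2b (chr11:102469884-102470133, minus strand): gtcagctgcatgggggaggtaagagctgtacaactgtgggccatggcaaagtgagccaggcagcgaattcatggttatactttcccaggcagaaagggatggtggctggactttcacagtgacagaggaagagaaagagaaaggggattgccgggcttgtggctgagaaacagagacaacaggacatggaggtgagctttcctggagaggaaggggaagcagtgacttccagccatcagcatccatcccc

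Capitals mark 1 GC box before Itgb1, 4 before Lama5 and 2 before Itga5, and none of the 4 motifs was found before Itga2b. The GC content of these stretches was 68.0%, 72.4%, 55.6% and 54.0%.

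The integrin alpha subunits that bind laminin were all lower on average in the double knockout, and none passed the test. Itga6, whose product pairs with the beta subunits of Itgb1 and Itgb4 in laminin receptors, read 10.52, 10.76 and 10.66 in the single knockout and 10.06, 10.59 and 10.49 in the double knockout, each in the order of replicates 1 to 3. Replicate 1 of the double knockout was the lowest array, and the remaining replicates lay on either side of the lowest single knockout value. Itga6 differed by -0.26 (SE 0.15, 95% interval -0.62 to 0.090, limma adjusted p = 0.872), or by -0.10 without that array. Itga3, an epithelial laminin receptor subunit, read 8.24, 8.40 and 8.47 in the single knockout and 8.01, 8.28 and 8.18 in the double knockout. The groups overlapped by a single value, that of double knockout replicate 2. The difference for Itga3 was -0.22 (SE 0.095, 95% interval -0.45 to 0.011), and -0.14 without double knockout replicate 1. The dimmer probe sets of Itga3 gave -0.14 and 0.060. Itga7, the laminin receptor subunit of muscle, was dim, with values from 4.14 to 4.54, and differed by -0.16.

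Alpha subunits that recognise the RGD sequence of fibronectin and related proteins included the member with the smallest unadjusted p. Itga5, the alpha subunit of the main fibronectin receptor, read 6.53, 6.70 and 6.43 in the single knockout and 6.19, 6.33 and 6.37 in the double knockout. Every double knockout value lay below every single knockout value, though the highest of the former was close to the lowest of the latter. It differed by -0.25 (SE 0.090, 95% interval -0.47 to -0.036, unadjusted p = 0.0287, limma adjusted p = 0.872), or by -0.20 without double knockout replicate 1. Its other 3 probe sets, all dimmer, gave 0.19, -0.18 and -0.10, so they were not on 1 side of 0. Itgav, the alpha subunit shared by receptors for vitronectin and latent TGF-beta, read 10.13, 10.18 and 10.03 in the single knockout and 10.20, 10.09 and 10.02 in the double knockout. The groups lay on top of each other, with a difference of -0.0076 (SE 0.072, 95% interval -0.18 to 0.16), or -0.056 without double knockout replicate 1.

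Itga8, whose product binds nephronectin in kidney development, read 8.72, 8.88 and 8.85 in the single knockout against 8.27, 8.87 and 8.69 in the double knockout. Double knockout replicate 1 was low and the remaining arrays overlapped, and the difference of -0.21 (SE 0.15) was -0.036 without it. A dimmer probe set of Itga8 gave 0.00030. Itga2b, the fibrinogen receptor subunit of platelets that also marks the first blood progenitors of the embryo, is of interest for its place. In the RefSeq gene table of GRCm38.p6 it is on chromosome 11 with 1 protein-coding gene between it and Fzd2, the locus that differs between the groups. It read 7.45, 7.50 and 7.47 in the single knockout and 7.49, 7.47 and 7.54 in the double knockout. The groups overlapped and the 6 values spanned 0.085, with a difference of 0.024 (SE 0.052, 95% interval -0.10 to 0.15). Of the 7 measured markers of megakaryocytes and platelets, 0 reached the median brightness of all genes, and their mean level ranged from 5.12 to 5.20 in the single and 5.13 to 5.17 in the double knockout.

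Itga4 and Itga9 form a subgroup that binds fibronectin, tenascin and Vcam1. Itga4, needed for fusion of the allantois with the chorion, read 7.10, 7.02 and 6.83 in the single knockout and 6.37, 6.96 and 6.99 in the double knockout. Double knockout replicate 1 was the low array, and the remaining arrays overlapped. The difference was -0.22 (SE 0.18) with that array and -0.014 without it. The dimmer probe sets of Itga4 gave -0.026, 0.085, -0.072 and 0.049. Itga9, a tenascin receptor subunit, read 8.40, 7.21 and 7.04 in the single knockout and 7.41, 7.16 and 7.01 in the double knockout. Single knockout replicate 1 lay 1.23 above the mean of the other 5 arrays, the only distance over 1 of any member in any array. Its difference of -0.36 (SE 0.35, 95% interval -1.20 to 0.49) was -0.46 without double knockout replicate 1 and 0.066 without single knockout replicate 1. The other probe sets of Itga9 did not share that high value. The next brightest read 6.82, 6.68 and 6.50 in the single knockout and 5.89, 6.60 and 6.51 in the double knockout, with double knockout replicate 1 low instead. That probe set differed by -0.33 (SE 0.19), or by -0.11 without double knockout replicate 1. The remaining probe set gave -0.15.

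**Figure D2:**
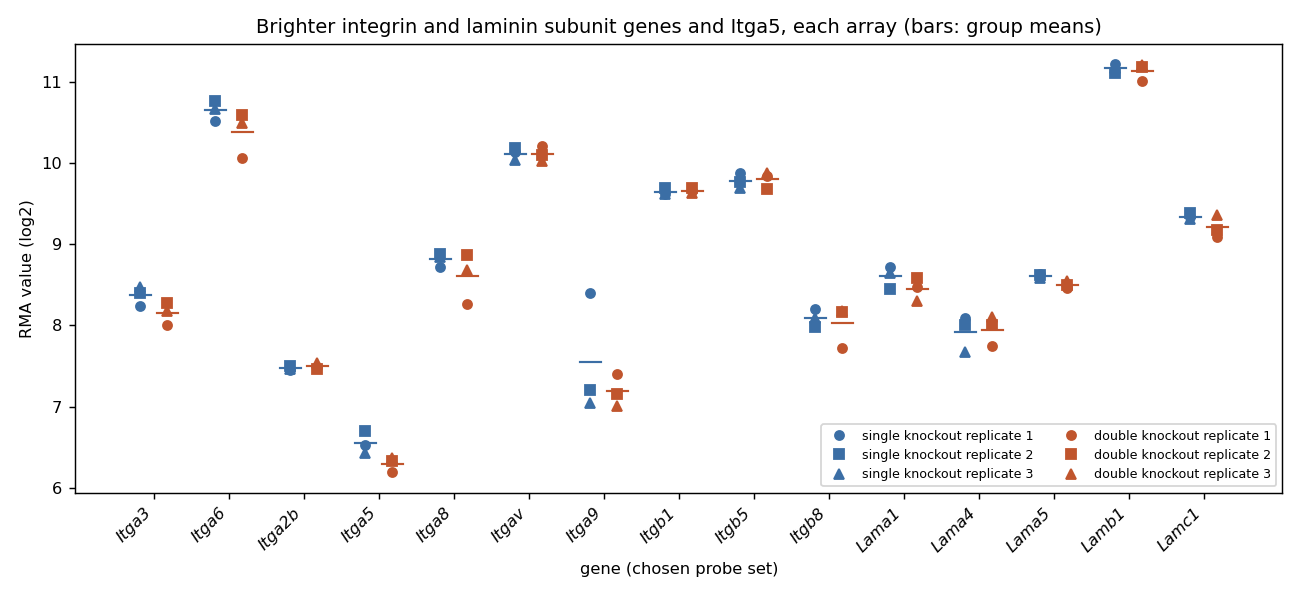
Log2 RMA value (y axis) of the 14 members at or above the median brightness of all genes and of Itga5 (x axis), in each of 3 single knockout (blue) and 3 double knockout (orange) arrays, with symbols for replicates 1 to 3 and bars for group means. Most groups overlap; Itga9 in single knockout replicate 1 reads 8.40, and Itga6 and Itga8 are lowest in double knockout replicate 1, at 10.06 and 8.27.

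Differences of the 8 beta subunit genes lay between -0.067 and 0.042. Itgb1, the partner of most alpha subunits of the embryo, read 9.62, 9.70 and 9.62 in the single knockout and 9.65, 9.70 and 9.63 in the double knockout. The 6 values spanned 0.080, the narrowest range of the 34 members, and the groups overlapped. It differed by 0.017 (SE 0.055, 95% interval -0.11 to 0.15), and its next brightest probe set by 0.012. Itgb5, a partner of the alpha subunit of Itgav, read 9.88, 9.77 and 9.69 in the single knockout against 9.84, 9.68 and 9.88 in the double knockout. Those groups overlapped as well, with a difference of 0.019 (SE 0.080; -0.0016 without double knockout replicate 1), and its other 3 probe sets gave 0.045, 0.079 and 0.024. Itgb8, which pairs with the same alpha subunit to release active TGF-beta, read 8.21, 7.98 and 8.09 in the single knockout against 7.72, 8.17 and 8.18 in the double knockout. Only double knockout replicate 1 lay below the single knockout values, and the difference was -0.067 with it and 0.084 without it.

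Itgb2, Itgb3, Itgb4, Itgb6 and Itgb7 lay below the median brightness and differed by -0.022, -0.032, -0.028, 0.042 and 0.024. With double knockout replicate 1 left out they differed by -0.0083, 0.0019, -0.037, 0.058 and -0.059. Itgb4 encodes the beta subunit of hemidesmosomes, Itgb3 that of platelet and osteoclast receptors, and Itgb2 and Itgb7 those of leukocyte receptors. Itgb6, of epithelial cells, had the largest of these on its chosen probe set. Its other probe set, read at 3.56, 3.63 and 3.59 in the single and 3.43, 3.39 and 3.32 in the double knockout, did not overlap and differed by -0.21 (SE 0.062, unadjusted p = 0.0111, limma adjusted p = 0.939 over all 45037 probe sets).

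Alpha subunits of the collagen-binding and leukocyte groups were all dim. Itga1, Itga2 and Itga10 of the collagen receptors read between 5.08 and 5.99 and differed by -0.045, -0.16 and -0.11, or by -0.074, -0.044 and -0.13 without double knockout replicate 1. The leukocyte subunit genes Itgae, Itgam and Itgax differed by -0.014, -0.028 and -0.030, and by -0.087, -0.050 and -0.077 without it. Itgal, which encodes a subunit of the lymphocyte adhesion receptor for Icam1, read 4.87, 4.85 and 4.91 in the single knockout and 4.94, 4.98 and 4.99 in the double knockout. The groups did not overlap, yet the difference was 0.097 (SE 0.051, limma adjusted p = 0.872), and its other probe set gave -0.16. Of 10 measured leukocyte markers 0 reached the median brightness of all genes, 5 were higher and 5 lower, and their mean level ranged from 5.37 to 5.48 in the single and 5.42 to 5.57 in the double knockout.

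Differences of the 10 laminin chain genes lay between -0.21 and 0.15. Lama1, the alpha chain of the first embryonic basement membranes and of Reichert's membrane, read 8.72, 8.45 and 8.64 in the single knockout and 8.47, 8.58 and 8.30 in the double knockout. The groups overlapped, with a difference of -0.15 (SE 0.10, 95% interval -0.40 to 0.092), or -0.16 without double knockout replicate 1. Lama5, the most widespread alpha chain of epithelial basement membranes, read 8.63, 8.63 and 8.59 in the single knockout against 8.46, 8.49 and 8.54 in the double knockout. All 3 double knockout values lay below the single knockout, by little. Lama5 differed by -0.12 (SE 0.053, 95% interval -0.24 to 0.011, limma adjusted p = 0.872), and by -0.096 without double knockout replicate 1. Its remaining probe sets gave -0.078 and -0.037. Lama4, the alpha chain of vessel walls, read 8.09, 8.01 and 7.67 in the single knockout against 7.74, 8.004 and 8.10 in the double knockout, with a difference of 0.029 (SE 0.14), or 0.13 without double knockout replicate 1. Of its 6 arrays, single knockout replicate 3 and double knockout replicate 1 were the low ones. Lama2, the muscle chain, and Lama3, the skin chain, were dim and differed by -0.18 and 0.15. For Lama3 the double knockout values of 5.06, 4.99 and 5.01 lay above the single knockout values of 4.96, 4.86 and 4.79. Its other probe set gave -0.034.

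Lamb1 and Lamc1 encode the beta and gamma chains found in most laminins of the embryo. Lamb1 read 11.21, 11.11 and 11.16 in the single knockout and 11.01, 11.18 and 11.20 in the double knockout. Apart from the lower double knockout replicate 1 the groups coincided, with a difference of -0.032 (SE 0.071, 95% interval -0.20 to 0.14) and 0.028 without that array. Its 3 other probe sets gave -0.026, -0.017 and -0.036. Lamc1 read 9.33, 9.38 and 9.31 in the single knockout against 9.09, 9.17 and 9.35 in the double knockout. Double knockout replicates 1 and 2 lay below the single knockout and replicate 3 within it, and the difference was -0.13 (SE 0.080, 95% interval -0.32 to 0.060), or -0.073 without double knockout replicate 1. Lamb2, the beta chain of nerve and muscle junctions and of the kidney filter, differed by -0.11, the epithelial chain Lamb3 by -0.054 and Lamc3 by -0.21. Without that array these differences were -0.050, -0.11 and -0.14.

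The 34 members had 73 probe sets in all, and 20 of them had several, 59 together. For 10 of these 20 genes every probe set lay on the same side of 0, and for the other 10 they did not. Those on 1 side included Itga6, where the second probe set gave -0.22, and Lama5, Lamb1 and Lamc1. Genes with probe sets on both sides included Itga3, Itga4, Itga5 and Itga8. Of the 73 probe sets, 2 had an unadjusted p under 0.05, 1 each of Itga5 and Itgb6, where 4.58% of all 45037 did, and 0 passed (smallest limma adjusted p = 0.939).

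**Figure D3:**
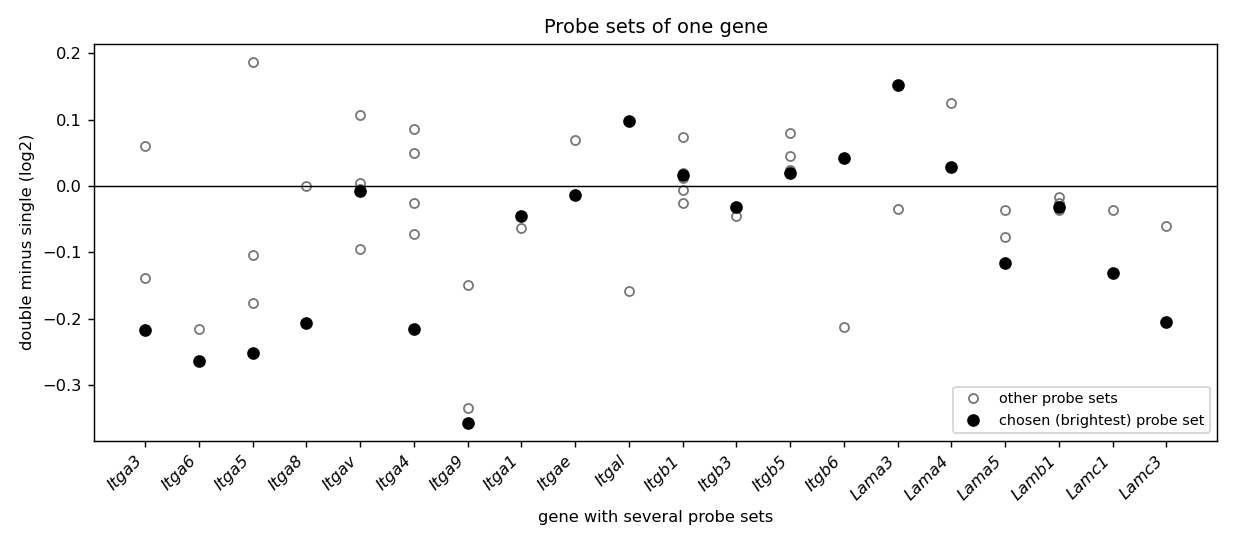
Difference between double and single knockout (log2, y axis) of every probe set of the 20 members that have several (x axis). Filled points are the brightest probe set, which stands for the gene, and open points the others; the sets of Itgb1 and Lamb1 lie near 0 and those of Itga5 range from -0.25 to 0.19.

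Other proteins of the basement membrane, and laminin or integrin ligands, were lower for 26 of 32 measured genes, with a median of -0.087. Of all genes 53.8% were lower. In limma 0 passed the test, with 1 lower and 1 higher gene at an unadjusted p under 0.05, where 4.96% of all genes lay. The groups did not overlap for 4 lower genes, Tnc among them, and 2 higher ones, against 11.4% of all genes. Without double knockout replicate 1, 23 were lower (53.3% of all genes) and the median was -0.077. In that setting 0 of the 32 passed in limma (smallest adjusted p = 0.701). An unadjusted p under 0.05 in limma was seen for 3 of them (6.67% of all genes), and 9 did not overlap (22.3% of all genes). Egflam, which encodes pikachurin, a ligand of dystroglycan, differed by -0.27 (SE 0.11, unadjusted p = 0.0445 in limma), or by -0.15 (unadjusted p = 0.0497 in limma) without double knockout replicate 1. The plasma adhesion protein gene Vtn, whose product vitronectin binds integrins, differed by 0.15 (SE 0.062, unadjusted p = 0.0478 in limma), or by 0.12 (unadjusted p = 0.110 in limma) on leaving it out. Of the 6 collagen IV genes, whose products form the network beside the laminin sheet, 5 were lower, with differences from -0.31 (Col4a6) to 0.046 (Col4a3), or from -0.13 to -0.019 with double knockout replicate 1 left out. The nidogen genes Nid1 and Nid2, whose products bridge the networks, differed by -0.35 and 0.057, and by 0.0087 and -0.028 without that array, so that both changed sign. Hspg2, the perlecan gene, differed by -0.078 (-0.12 without it) and Fn1, the fibronectin gene, by 0.0040 (0.070 without it). The genes of these families, Hspg2, Fn1, Tnc and Npnt were picked after their values were seen. Tnc, which encodes the tenascin bound by the product of Itga9, read 7.85, 8.22 and 8.21 in the single knockout and 5.79, 7.64 and 7.55 in the double knockout. Its groups did not overlap, with a difference of -1.10 (SE 0.49, limma adjusted p = 0.872), or -0.50 without double knockout replicate 1. Npnt, the nephronectin gene, was lowest in double knockout replicate 1 at 7.51, against 8.80 to 9.14 in the other 5 arrays.

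Genes for proteins that join integrins to actin or relay their signals were lower for 28 of 44 measured genes, with a median of -0.032. Of all genes 53.8% were lower. In limma 0 passed, with 1 gene at an unadjusted p under 0.05, where 4.96% of all genes lay. The groups did not overlap for 3 lower genes and 1 higher one, against 11.4% of all genes. Without double knockout replicate 1 there were 26 lower (53.3% of all genes) and a median of -0.026. In that setting 0 of the 44 passed in limma (smallest adjusted p = 0.707). An unadjusted p under 0.05 in limma was seen for 1 of them (6.67% of all genes), and 6 did not overlap (22.3% of all genes). With all arrays, Elmo1 and Dock1, whose products act together to activate Rac, had the smallest unadjusted p values. Elmo1 differed by 0.16 (SE 0.055, unadjusted p = 0.023 in limma) and Dock1 by -0.15 (SE 0.073), in opposite directions. Leaving out double knockout replicate 1, Elmo1 was at 0.13 (unadjusted p = 0.0524 in limma) and Dock1 at -0.097.

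Double knockout replicate 1 held large shifts in markers of several tissues. None of the 34 integrin and laminin genes was in it at a distance above 1 from the average of the remaining 5 arrays. Of all 18193 genes, 479 were. The median size of the distance in this array was 0.113 over members and 0.119 over all genes. A distance above 0.5 was seen for 3 members, all lower: Itga4 at -0.61, Itga6 at -0.54 and Itga8 at -0.53. The share of all genes past 0.5 in this array was not counted, so these 3 are no result about the members. Averaged over genes and set against the mean of the single knockout arrays, integrin subunits stood at -0.13, -0.087 and -0.032 in double knockout replicates 1 to 3, and laminin chains at -0.13, -0.059 and -0.049. Visceral endoderm markers stood at 2.57, -0.069 and -0.12, and 12 of 12 were higher in the double knockout with all arrays and 4 of 12 without replicate 1. Trophoblast markers stood at 1.89, -0.053 and -0.071, with 7 of 8 higher, or 3 of 8 without replicate 1. Decidua markers stood at 0.65, -0.16 and -0.21, with 5 of 7 higher, or 2 of 7 without it. The median over these 7 decidua markers stood at 0.34, -0.076 and -0.21.

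Markers of parietal endoderm, the tissue that lays down Reichert's membrane, stood at 0.43, -0.0020 and 0.19 in double knockout replicates 1 to 3, with 5 of 6 higher, or 4 of 6 without replicate 1. Epiblast markers stood at 1.08, 0.27 and 0.42, with 8 of 9 higher, or 9 of 9 without it. The median over these 9 epiblast markers stood at 0.45, 0.16 and 0.28, so the means rested in part on a few genes, among them Pou5f1. In double knockout replicate 1 Pou5f1 read 10.77, while Tdgf1 and Otx2 lay below every single knockout array. Markers of the embryo's own tissues stood at -1.77, -0.0052 and -0.57, with 11 of 14 lower, or 7 of 14 without it. The median over these 14 markers stood at -0.83, 0.028 and -0.041, so the mean of replicate 3 rested on a few genes, among them the embryonic globin gene Hba-x at 8.90 against 12.03 to 12.64 in the single knockout. In limma 0 of these marker genes passed over all genes. At an unadjusted p under 0.05 lay 1 gene each of the leukocyte, decidua, parietal endoderm, epiblast and embryo tissue markers, where 4.96% of all genes lay. These were Fcer1g, an Fc receptor subunit gene, at 0.20, the Wnt ligand gene Wnt4 at -0.23 and the thrombomodulin gene Thbd at 0.37. Dppa4 of pluripotent cells stood at 0.23 and the somite transcription factor gene Meox1 at -0.58. Leaving out double knockout replicate 1 gave 0.15, -0.28, 0.28, 0.19 and -0.45 in the same order. In that setting 3 epiblast, 2 embryo tissue and 1 each of the visceral endoderm, parietal endoderm and decidua markers had an unadjusted p under 0.05 in limma (6.67% of all genes). The markers' part in the values of Itga4, Itga6, Itga8 and the other members was not tested.

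**Figure D4:**
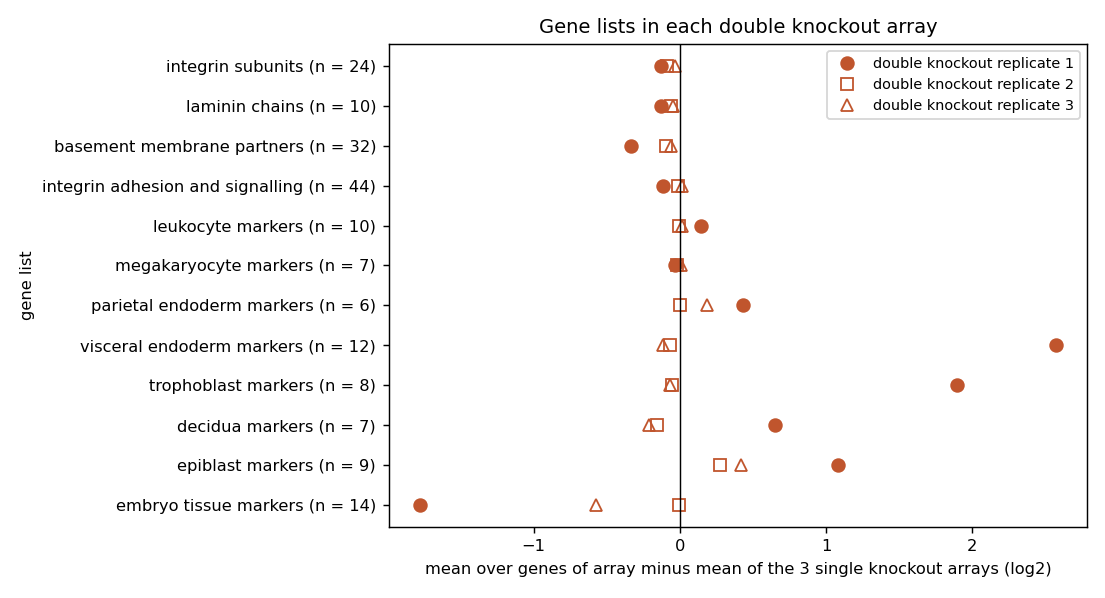
Mean over the genes of each list (y axis, with the number measured) of the array's log2 value minus the mean of the 3 single knockout arrays (x axis), for double knockout replicates 1 (filled circle), 2 (square) and 3 (triangle). Integrin subunits and laminin chains stay between -0.13 and -0.032, whereas visceral endoderm markers reach 2.57 and embryo tissue markers -1.77 in replicate 1.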

How the data were processed

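Total RNA of whole embryos, extracted with Trizol and RNeasy per the labels' protocols, was labelled with biotin and measured on 6 single-colour Affymetrix arrays. The authors deposited a table of log2 values for 45101 probe sets. RMA (robust multi-array average) made them, per the submitters' processing notes; the sources used here do not give its version or the probe definitions. The log2 scale was taken from the values, which ran from 2.64 to 15.17. RMA equalises the arrays' distributions and compresses differences near background. The number of arrays limits the precision.

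Gene names came from the platform's annotation table, leaving out 64 controls, 932 with several symbols and 9160 with none listed. Identifiers of 99.1% of genes matched the RefSeq table of GRCm38.p6. The groups, taken from the sample titles, were compared in limma 3.58.1 under R 4.3.3 (lmFit, eBayes, two-sided), adjusted over 18193 genes at a threshold of 0.05. The script was tested on simulated data.

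Named with values were members at or above the median brightness, with an unadjusted p under 0.05 or with a difference over 0.5, members described for their role, from the partner and signalling lists the genes past the threshold or else 2 with the smallest unadjusted p, and marker genes with an unadjusted p under 0.05. Members and lists were chosen with earlier results of these data known. Alternatives are given in the closing section. Replicate numbers were not treated as pairs in the main comparison. Deviations of same-numbered arrays from their group means correlated at 0.09, -0.04 and -0.13 across genes. Such correlations cannot decide whether the samples were paired, so the replicate number as a block is among the alternatives.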

Additional observations from a re-analysis of the deposited data

How the results depend on the processing

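Of the 34 members, 0 passed the threshold under any of 14 alternatives (smallest limma adjusted p = 0.728, with array weights), and 17 kept their direction under all of them. The other 17 had differences of at most 0.067 in size, except Itgal at 0.097 and Itga9 at -0.36. With the mean of the probe sets, Itgae was 0.028, Itgal -0.030, Itgav 0.00074 and Itgb6 -0.086. With array weights, Itgb2 was 1.6e-05, Itgb7 -0.040, Itgb8 0.050 and Lamb1 0.015. Leaving out 1 array at a time gave ranges of -0.074 to 0.00057 for Itga1, -0.61 to 0.066 for Itga9, -0.087 to 0.060 for Itgae, -0.082 to 0.047 for Itgam, -0.056 to 0.035 for Itgav, -0.11 to 0.092 for Itgax, -0.0010 to 0.044 for Itgb1 and -0.10 to 0.055 for Itgb2. For the others whose sign turned they were -0.059 to 0.019 for Itgb3, -0.077 to 0.031 for Itgb4, -0.024 to 0.080 for Itgb5, -0.0013 to 0.096 for Itgb6, -0.059 to 0.087 for Itgb7, -0.15 to 0.084 for Itgb8, -0.097 to 0.13 for Lama4 and -0.067 to 0.028 for Lamb1. The integrin median of -0.031 was -0.067 with genes below the median brightness left out, which leaves 9 of 24, and -0.080 to -0.011 leaving out 1 array; the laminin median of -0.11 ranged over -0.12 to -0.081. The count of called genes was 0 with the mean of the probe sets and 0 to 1 leaving out 1 array. Fzd2 was then -2.49 (limma adjusted p = 0.0691) and -2.49 to -2.30. A second quantile normalization and median centring turned no member's direction. With the replicate number as a block, 0 members and 1 gene, Fzd2 (-2.42, limma adjusted p = 0.0233), were called, and the block changed no call. Unadjusted p values of members moved with the block in both directions. In limma they went from 0.120 to 0.031 for Itga6 and from 0.0593 to 0.0270 for Itga3. For Itga5 the unadjusted limma p went from 0.0287 to 0.0374. The platelet marker gene Gp1bb was -0.084, and 0.017 with the mean of its probe sets.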
